A study of Drosophila melanogaster with 2 samples.

Results

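The 35 genes described here belong to the receptor tyrosine kinase and Ras pathway of Drosophila melanogaster: ligands of the Egf receptor, the receptors Egfr, sev, btl, htl and tor, and the kinases, adaptors, inhibitors and transcription factors that act below them. They are 35 of the 13945 protein-coding genes annotated by Ensembl 115 on the 6 chromosomes with reproducible peaks, and all 35 were found in that annotation, Gap1 under its present name RasGAP1. The genes were listed by name, with earlier results of these data known, and their sites were chosen from the deposited peak lists by position. A peak was given to a gene when its summit lay inside the gene or within 500 bp of any of its transcription start sites (TSSs), so having such a summit is a description and was not tested. NC2alpha, a subunit of the TBP-binding negative cofactor 2, was mapped by chromatin immunoprecipitation and sequencing (ChIP-seq) in a single group: whole embryos of both sexes, 0 to 24 hours old, of a stable transgenic line making NC2alpha with eGFP at its C terminus. Chromatin was sonicated to 200 to 800 bp and precipitated with anti-GFP in 2 biological replicates. The sources used here do not name the promoter that drives the fusion gene, and no genotype, stage or treatment was compared. Embryos of this age span mix all tissues and stages, so strong binding in few cells and weak binding in many cannot be told apart.

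In this pathway a ligand such as Spitz brings receptor tyrosine kinases together, the adaptor Drk recruits the exchange factor Sos, and Ras then passes the signal through the kinases Raf, Dsor1 (MEK) and Rolled (ERK) to the nucleus. There ERK acts on the Ets factors Pointed and Aop (Yan) and on the repressor Capicua, and several of the genes switched on in response, among them argos and sprouty, encode inhibitors of the same pathway. In the fly embryo it patterns the ventral ectoderm, the termini, the tracheae and the mesoderm. NC2 was described first as a repressor of TATA-dependent transcription and in Drosophila also as an activator of promoters with a downstream promoter element.

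NC2alpha had reproducible summits at 17 of the 35 genes (48.6%), against 13.5% of all protein-coding genes. Every nuclear effector (pnt, aop, edl, cic) was among the 17, as were 3 of 4 ligands (spi, vn, Krn), 2 of 3 ligand-processing genes (rho, S), 3 of 6 inhibitors (aos, sty, RapGAP1), the ERK-regulated kinase gene Lk6, drk, Shc, Ras85D and Raf. None of the 5 receptor genes was. These roles differ in gene length. Among the nuclear effectors pnt, cic and aop are 55.9, 51.2 and 22.3 kb, and edl is 6.01 kb. Egfr is 37.6 kb, but sev, htl, btl and tor are 14.9, 7.77, 7.46 and 4.00 kb. Among all genes, 23.9% of those of 5 to 20 kb and 36.1% of longer ones had a reproducible summit. With so few genes per role, no matched share was taken and the difference between roles was not tested. The reproducible ("optimal") list holds the 2174 peaks that passed the authors' replicate filter, and the 17 genes held 40 of them. Only 8 genes had such a summit at a TSS (22.9%, against 10.5% of protein-coding genes): spi, Krn, rho, Shc, Ras85D, RapGAP1, pnt and edl. In the other 9 (vn, S, drk, Raf, aos, sty, aop, cic, Lk6) all summits lay inside the gene, away from the TSSs.

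The pathway genes are long, with a median of 9.42 kb against 2.17 kb for all protein-coding genes, and a long gene has more room for a summit. Among genes of 20 kb and over, 8 of the 12 pathway genes had an optimal summit, and 36.1% of all 1013 such genes did. Between 5 and 20 kb it was 6 of 17 against 23.9% of 2471, and under 5 kb 3 of 6 against 8.86% of 10461. At a TSS, 2 of 12 had one at 20 kb and over, against 16.1% of all such genes. Between 5 and 20 kb 3 of 17 did, against 16.9%, so from 5 kb upwards the TSS share was close to that of all genes. Under 5 kb it was 3 of 6 against 8.40%, namely Krn, Shc and Ras85D, whose sites are each shared with another gene. Taken over the merged span of the genes, 37 optimal summits fell in 661 kb of pathway genes, or 56.0 per Mb, against 14.2 per Mb in all protein-coding genes. Without Raf, which alone held 8, the density was 47.4 per Mb.

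**Figure D1:**
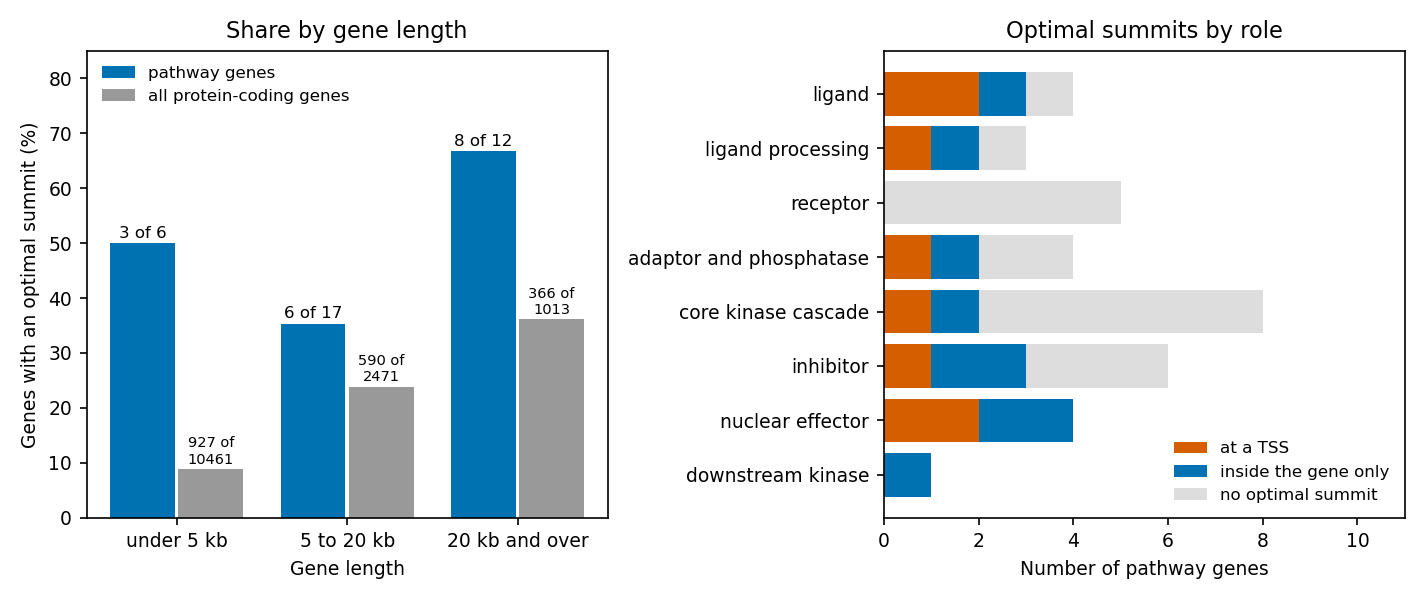
Left, percent of pathway genes (blue) and of all protein-coding genes (grey) with an optimal summit inside the gene or within 500 bp of a TSS, by gene length, with counts above the bars. Right, number of pathway genes of each role with an optimal summit at a TSS (orange), inside the gene only (blue) or none (light grey). All 4 nuclear effectors and none of the 5 receptors have one, and the roles are not matched for gene length.

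The 151 bases centred on the strongest summit of each of the 6 genes with the highest signals are shown because they are the sites with the highest NC2alpha signal in the pathway. They are from the Release 6 reference genome (dm6), 5′ to 3′ on the strand of the gene, and capitals mark any of the 8 motif words listed with the motif counts, on either strand. Lk6 (chr3R:11760976-11761126), Raf (chrX:2297638-2297788), aos (chr3L:16480502-16480652) and S (chr2L:1072292-1072442) are intron sites, spi (chr2L:19575672-19575822) is upstream of the TSS of 1 transcript and within an intron of others, and Shc (chr3L:9426809-9426959) lies between 2 divergent genes. Raf and Shc are read on the plus strand and the other four on the minus strand.
Lk6: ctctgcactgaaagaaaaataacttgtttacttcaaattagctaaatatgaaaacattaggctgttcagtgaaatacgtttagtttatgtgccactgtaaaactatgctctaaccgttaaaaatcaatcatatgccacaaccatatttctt
Shc: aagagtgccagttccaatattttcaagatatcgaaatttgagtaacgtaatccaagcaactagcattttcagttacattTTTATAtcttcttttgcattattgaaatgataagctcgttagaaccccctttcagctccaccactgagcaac
Raf: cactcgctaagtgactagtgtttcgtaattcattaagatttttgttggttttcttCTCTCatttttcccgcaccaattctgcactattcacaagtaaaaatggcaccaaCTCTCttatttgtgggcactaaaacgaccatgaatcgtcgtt
aos: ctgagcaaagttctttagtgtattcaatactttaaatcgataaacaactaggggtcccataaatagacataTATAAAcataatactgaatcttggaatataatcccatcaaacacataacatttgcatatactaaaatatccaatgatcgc
S: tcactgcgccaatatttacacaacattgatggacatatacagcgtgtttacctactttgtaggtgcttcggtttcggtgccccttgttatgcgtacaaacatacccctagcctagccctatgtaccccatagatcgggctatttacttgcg
spi: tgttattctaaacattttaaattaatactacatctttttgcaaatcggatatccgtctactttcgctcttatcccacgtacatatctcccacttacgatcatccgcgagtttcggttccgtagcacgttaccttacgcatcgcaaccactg
No word is common to these 6 sites. The GAGA word is in Raf as CTCTC. The TATA box word is in the intron site of aos as TATAAA and in Shc on the other strand. Lk6, S and spi hold none of the words in the 151 bases shown. Their GC content ran from 29.8% at aos to 46.4% at S.

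Signal is the authors' value per peak relative to a control alignment, whose scale the deposited notes do not state. It was 82.0 in the weakest optimal peak and 1230.2 in the strongest. The 40 summits of the pathway had a median signal of 148, against 118 over all 2174, and ranged from 84.2 to 913. Of the 40, 29 stood in the stronger part of the list, ranks 1 to 1087. Without Raf the median was 138, and 23 of 32 stood in that part. Signal ranks sites and is not a number of molecules.

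**Figure D2:**
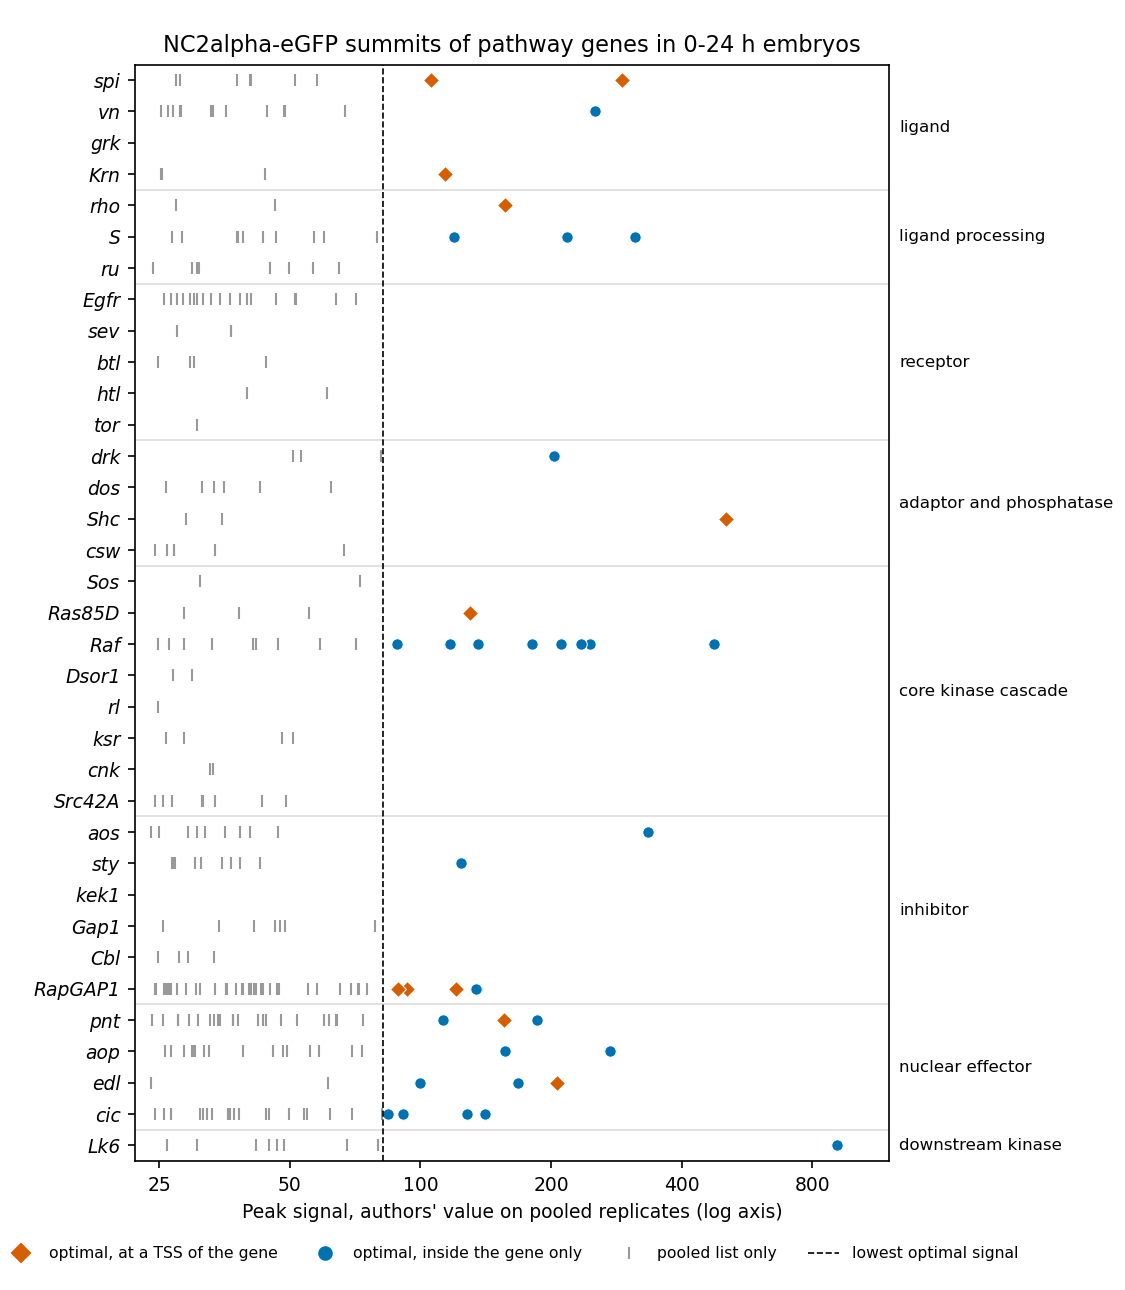
Peak signal (authors' value on pooled replicates, log axis) of every summit given to each pathway gene, ordered by role: optimal summits at a TSS of the gene (orange diamonds), optimal summits inside the gene only (blue circles) and summits found only in the pooled list before the replicate filter (grey ticks). The dashed line is the lowest optimal signal, 82.0; Lk6 has the strongest summit, at 913, while grk and kek1 have none.

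Among the ligands, spi, which encodes the main activating ligand of Egfr in the embryo, had the strongest summit (signal 291, rank 138 of 2174). It was 139 in replicate 1 and 153 in replicate 2, and lay at -160 bp from the TSS of the transcript spi-RG, negative values meaning upstream. A weaker summit stood beside it at -374 bp (signal 106, rank 1316), and the peaks overlap, so both have the same replicate values. The other 2 annotated TSSs of spi had only summits below the filter, of 57.9 and 51.4, so the optimal signal of this gene was at 1 of its 3 start sites. Krn, a Spitz-like ligand gene, had a summit of 114 (46.4 and 62.5 in replicates 1 and 2) at -1 bp from its TSS. That TSS is also the one of Ndfip, a longer gene on the same strand, and the summit is at -336 bp from CG7484 on the other strand, so the site cannot be given to Krn alone. In vn, whose product Vein is a weaker neuregulin-like ligand, the single optimal summit lay in an intron, 21404 bp downstream of the TSS (signal 252, rank 197), with 187 in replicate 1 and 70.9 in replicate 2. Its TSS had only a summit of 48.8. For grk, the ligand gene of the female germline, neither the optimal nor the pooled list held a summit, although the list of replicate 1 alone held 1.

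Spitz-type ligands are cut free by the Rhomboid proteases and carried by Star. rho had 1 optimal summit at 26 bp from its TSS, in the 5′ UTR (signal 157; replicates 97.2 and 55). The gene itself lies in an intron of Ptp61F, a tyrosine phosphatase gene on the other strand whose TSS is 11420 bp from this summit. S (Star) had 3 intron summits at 1872, 3073 and 5444 bp from a TSS, with signals of 218, 119.6 and 312. Replicate 1 was higher at all 3, with 125, 79.0 and 239 against 93.3, 40.1 and 71.2 in replicate 2. The promoter of S missed the filter with 79.4, at -31 bp. ru, a paralogue of rho, had no optimal summit, and its strongest pooled one was 64.9, at 529 bp.

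None of the receptor genes passed the filter. Egfr, a gene of 37.6 kb, held 19 summits in the pooled list, none above 71.0. That one lay in an intron (42.5 in replicate 1 and 27.0 in replicate 2), the promoter of Egfr-RA had 64.0 at -125 bp, and the promoter of Egfr-RB had 27.5 at -43 bp. The Fgf receptor genes htl and btl had at most 61.0 (at -330 bp from the TSS of htl-RA and htl-RC) and 44.1 (at -443 bp from btl-RA). For sev, the receptor of the R7 photoreceptor, the maximum was 36.7 in an intron, and for tor, the terminal receptor whose mRNA is maternal, 30.6 in coding sequence. The last of these had a peak in the list of replicate 2 (13.4) and none in that of replicate 1.

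Directly below the receptors, Shc, which encodes a phosphotyrosine adaptor, had the strongest promoter summit of the pathway (signal 507, rank 40; 241 in replicate 1 and 264 in replicate 2). It lay at -126 bp from the TSS of Shc and at -126 bp from that of Atat, a tubulin acetyltransferase gene on the opposite strand, midway between them. drk, the Grb2 adaptor gene (2R, 13495222 to 13502841), had an intron summit of 203 at 2516 bp from the nearest TSS (115 and 90.9), and its promoter summit of 81.1 fell just below the filter. dos, for the scaffold Daughter of sevenless, and csw, for the SHP2 phosphatase, had no optimal summit, with pooled maxima of 62.3 in coding sequence and 66.6 at -12 bp from a TSS.

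In the Ras to ERK core, Ras85D and Raf had optimal summits and Sos, Dsor1, rl, ksr, cnk and Src42A had none. The Ras85D summit (signal 129.8, rank 897) was 67.2 in replicate 1 and 64.3 in replicate 2 and lay at -55 bp from the TSS. It is also at -205 bp from the divergent gene Rlb1. Pooled maxima were 72.7 for the exchange factor gene Sos, at 447 bp in its coding sequence, 51.0 for the scaffold gene ksr and 49.1 for the Src kinase gene Src42A. They were lower for the scaffold gene cnk (33.2), the MEK gene Dsor1 (29.7) and the ERK gene rl (24.8). rl spans 54.5 kb on 2R and held 1 pooled summit in all, with no peak in the list of replicate 1. Raf spans 48.4 kb and held 17 pooled summits, 8 of them optimal. How well reads could be placed in either gene was not examined, so the few listed peaks do not show that rl is unbound.

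Raf, which encodes the kinase that phosphorylates MEK, had the most optimal summits of the pathway. From the 5′ end they had signals of 235, 475, 181, 246, 136 and 210.5, at 857, 2247, 3697, 5226, 6888 and 8595 bp downstream of the TSS of Raf-RE. The values in replicate 1 were 112, 267, 118, 127, 61.8 and 117, and in replicate 2 they were 121, 210.0, 60.5, 113, 74.2 and 87.0. The remaining 2, of 88.3 (49.7 and 38.2) and 117 (64.2 and 54.3), lay 26.6 and 34.0 kb from that TSS, in the stretch that holds the nested genes CG14050, CG2854, Ilp6, lncRNA:CR33218 and lncRNA:CR34052. The first of these was at 209 bp from the TSS of lncRNA:CR34052. All 8 are inside Raf only through the transcript Raf-RE: the other start site, of Raf-RA, lies 44.8 kb further downstream, all 8 summits are upstream of it, and its promoter had only 41.9, at -147 bp. No pooled summit was within 500 bp of the TSS of Raf-RE.

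**Figure D3:**
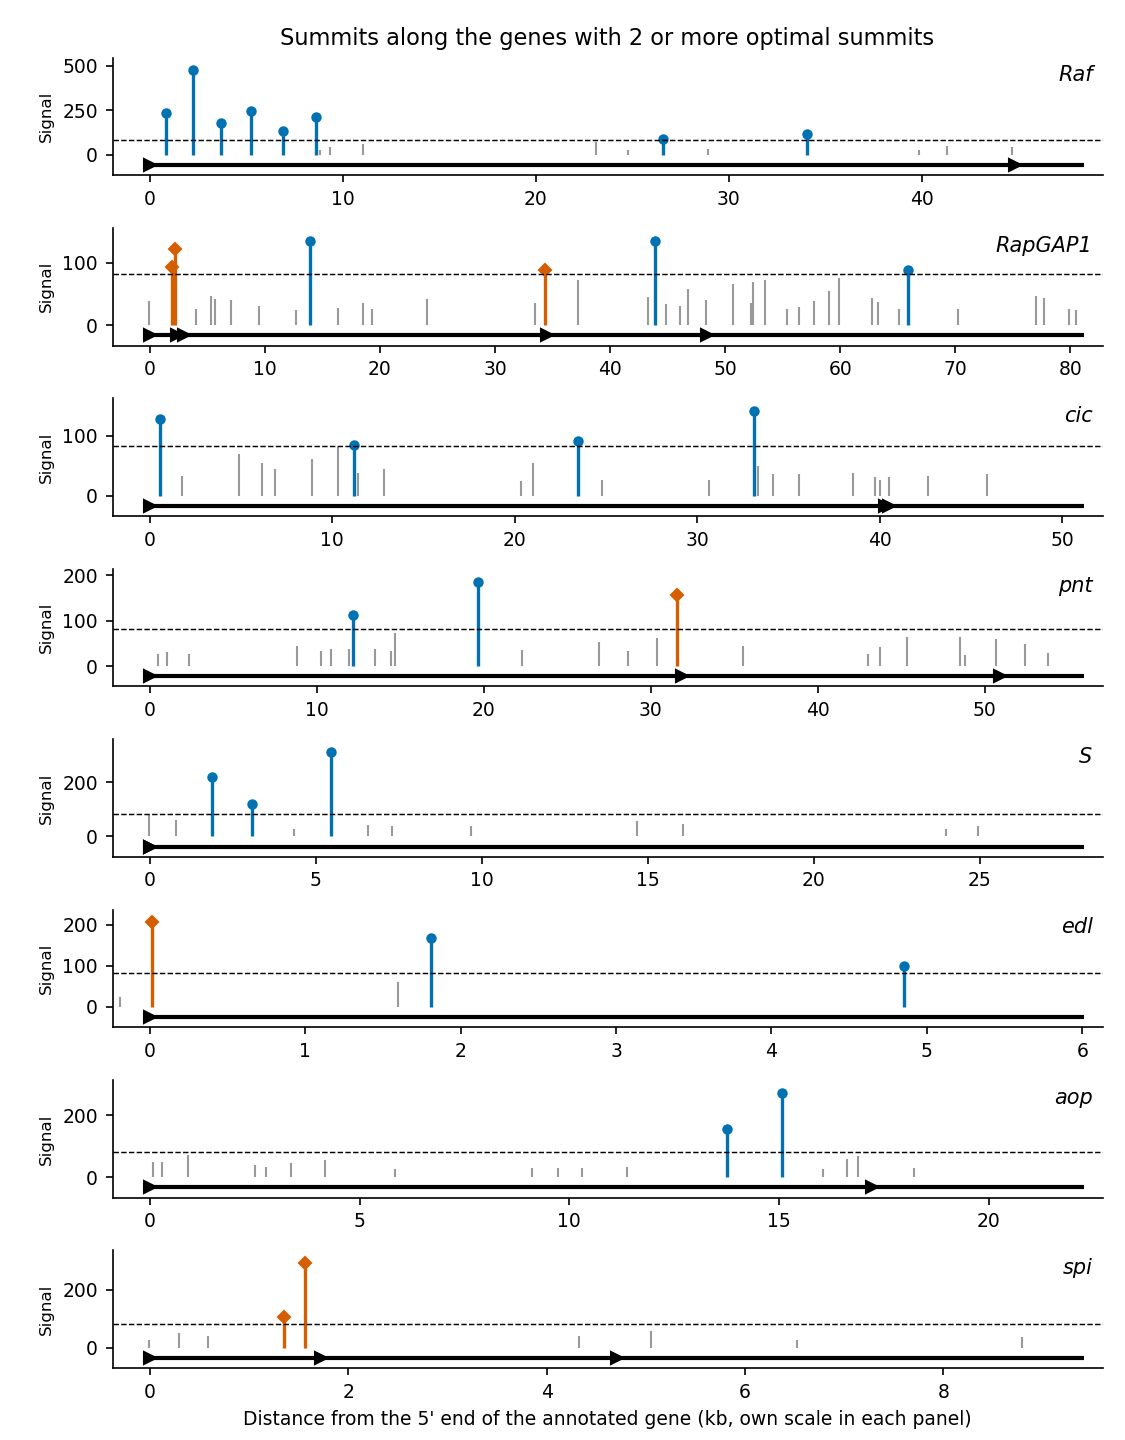
Position of each summit along the 8 genes with 2 or more optimal summits, in kb from the 5′ end of the annotated gene (black bar, arrowheads at annotated TSSs), against the authors' pooled signal; each panel has its own scales. Orange diamonds are optimal summits at a TSS, blue circles optimal summits inside the gene only and grey lines pooled summits that missed the filter at 82.0 (dashed). In Raf, 6 of 8 optimal summits lie in the first 10 kb; in aop both lie ahead of the downstream start site.

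Among the inhibitors, aos, which encodes the secreted Egfr antagonist Argos, had 1 strong intron summit at 3073 bp from its TSS (signal 334, rank 92; 184 in replicate 1 and 151 in replicate 2). This site also lies inside CG33158, a gene on the other strand that spans aos, and the aos promoter had only 38.5. sty (Sprouty, an intracellular inhibitor) had 1 intron summit of 124 (66.6 and 50) at -892 bp from the TSS of sty-RB. RapGAP1, which encodes a GTPase-activating protein for Rap1, had 6 optimal summits over 81.2 kb. Of these, 121 and 93.0 stood at -219 and -487 bp from the TSS of RapGAP1-RD, in overlapping peaks with shared replicate values of 77.1 and 51.8. Another of 88.6 was at -187 bp from RapGAP1-RF, and there the replicates were further apart, with 68.0 in replicate 1 and 22.7 in replicate 2. All 6 lay in introns of the gene, and the 3 away from the TSSs were 135, 134 and 88.1, and 3 of its 5 annotated TSSs had no optimal summit.

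The inhibitor genes without one were Gap1, Cbl and kek1. Gap1, for a Ras GTPase-activating protein, had its strongest pooled summit at 196 bp from the TSS (78.8; replicates 42.9 and 18.5), close under the filter. Cbl, for the ubiquitin ligase that removes active receptors, reached 33.4 in coding sequence. kek1, for a transmembrane inhibitor of Egfr, had no summit in the pooled list and 1 in the list of replicate 2 alone.

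All 4 nuclear effector genes had optimal summits, 12 in total. edl, whose product binds Aop and Pointed through their shared domain, had the strongest at a TSS (2R, summit 18673523; signal 206, rank 332), at 13 bp in its 5′ UTR. Replicate 1 gave 146 and replicate 2 gave 61.3. Its intron summits at 1809 and 4852 bp had signals of 168 and 99.7, and edl, at 6.01 kb, is the shortest gene with 3 of them. pnt, the Ets activator gene, had 1 at -253 bp from the TSS of pnt-RD (156; 113 and 41.6), while its other start sites had 60 (pnt-RC and pnt-RE) and 25.5 (pnt-RB). A stronger pnt summit of 186 (123 and 60.6) lay at -12193 bp from pnt-RD, and the weakest, of 113 (50.1 and 57.2), was also at -206 bp from lncRNA:CR46090. aop, the Ets repressor gene, had summits of 273 (162 and 109.7) and 157 (99.6 and 53.0). They lay at -2156 and -3463 bp from the TSS of aop-RA and aop-RD, in an intron of the longer transcripts. Neither promoter of aop had an optimal summit. Below the filter there were 69.7 at -348 bp from aop-RA and aop-RD, and 49.3 at 287 bp from the upstream TSS.

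cic, for the HMG-box repressor Capicua, had 4 weaker summits. The one at 549 bp from the TSS of cic-RD and cic-RG, in a 5′ UTR, had 128 (61.8 and 67.0) and narrowly missed the 500 bp window. Intron summits had 141 (87.3 and 45.9), 91.2 (70.7 and 17.4) and 84.2 (57.0 and 33.4). The promoter shared by cic-RA, cic-RB and cic-RC had 31.1.

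Lk6, for a kinase that ERK binds and that phosphorylates eIF4E, had the strongest summit of all 35 genes and the sixth strongest of the 2174 (signal 913; 524 in replicate 1 and 382 in replicate 2). It lay at -972 bp from the TSS of Lk6-RB and 3406 bp into the longer transcript Lk6-RA. The promoters themselves were weaker by far, with 79.7 at -17 bp from Lk6-RA and 46.8 at Lk6-RB.

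Summits of the pathway genes were mostly in introns: 33 of 40 (82.5%), with 4 in 5′ UTRs, 3 just upstream of a gene and none in coding sequence. The intron sites include the summits of spi, RapGAP1 and pnt that lie within 500 bp of an internal TSS, inside a longer transcript. Counting each summit with each protein-coding gene it was given to, 42.8% of 2367 pairs were in an intron. Among genes of at least 5 kb 65.2% of 1407 were, and no finer match for length was made. At any annotated TSS lay 13 of the 40 (32.5%), against 54.8% of all optimal summits and 50% of those given to a protein-coding gene of at least 5 kb. Without Raf the share was 37.5%. More than 1000 bp from any TSS lay 21 (52.5%), against 34.2% of all optimal summits. Of the 11 summits at a TSS of the gene itself, 9 were upstream (81.8%), and of the 1192 optimal summits at TSSs 898 were (75.3%). The median position was -160.0 bp in the pathway and -77.0 bp over the 1192. Both spi summits and both at the TSS of RapGAP1-RD are in overlapping peaks, so the 11 are not 11 separate sites. The 29 away from their TSSs were at a median of 4.85 kb.

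For 8 short motif words, the exact letters were searched on both strands within 100 bases of each summit, and matches of different words may overlap. The GAGA word, GAGAG, was within reach of 23 of the 40 summits (57.5%), against 28.6% of all 2174. It was at 17 of the 29 away from their TSSs, against 30.1% of the 982 optimal summits away from any TSS, and at 18 of 32 without Raf. The TATA box word, TATAAA, was at 15 (37.5%, against 28.8%), in aop, aos, cic, drk, edl, pnt, rho, RapGAP1, S, Shc and spi. It was at 4 of the 11 summits at a TSS of the gene itself. The other 11 were among the 29 away from their TSSs, against 26.9% of the 982 optimal summits away from any TSS. Most matches were thus not at an annotated promoter of the gene. The core promoter word known as Ohler 7, CATCNCTA, was at 4 (10%, against 4.0% of all), namely in Krn, Ras85D, Shc and cic. The DNA replication-related element, TATCGATA, was at 2 (5.0%, against 3.54%), the divergent promoters of Ras85D and Shc. The E-box CAGCTG was at 3 (7.5%, against 10%), in Krn, aop and sty. No pathway summit had the Ets core CCGGAA, against 4.83% of all optimal summits and 3.05% of the 982 away from any TSS. None had the Capicua-type word TGAATGAA (against 1.66% and 1.22%) or the word known as Ohler 1, GGTCACAC (against 2.25% and 0.916%). With shares this low, few or no matches would be found in any 40 summits, so these absences do not set the pathway apart. No match says only that these letters are not in the window. Median GC content in these windows of 201 bases was 41.3%, against 38.3% over all optimal summits. These are descriptions of letters, with no test, and the members were not chosen independently of the peaks.

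The list of each replicate, background included, had a peak at all 40 summits, and the overlapping peaks of spi and of RapGAP1 share theirs. Replicate 1 gave the higher value at 30 (75%, against 77.8% of the 2158 optimal summits with both values), with a median ratio of 1.34 against 1.31. The replicates were over 2-fold apart at 7 of 40 (17.5%, against 18.1%), each time with replicate 1 higher: at cic (4.05), S (3.36), RapGAP1 (3.0), pnt (2.72 and 2.04), vn (2.64) and edl (2.39). At 32 of the 40 summits, the peak was among the 2174 strongest of each replicate alone. By gene, 16 of 35 had a summit among them in each replicate (45.7%, against 9.82% of protein-coding genes). These were all of the 17 but Krn, which replicate 1 had only at 46.4. That share was not matched for gene length, whose median was 9.42 kb in the pathway and 2.17 kb over all protein-coding genes.

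**Figure D4:**
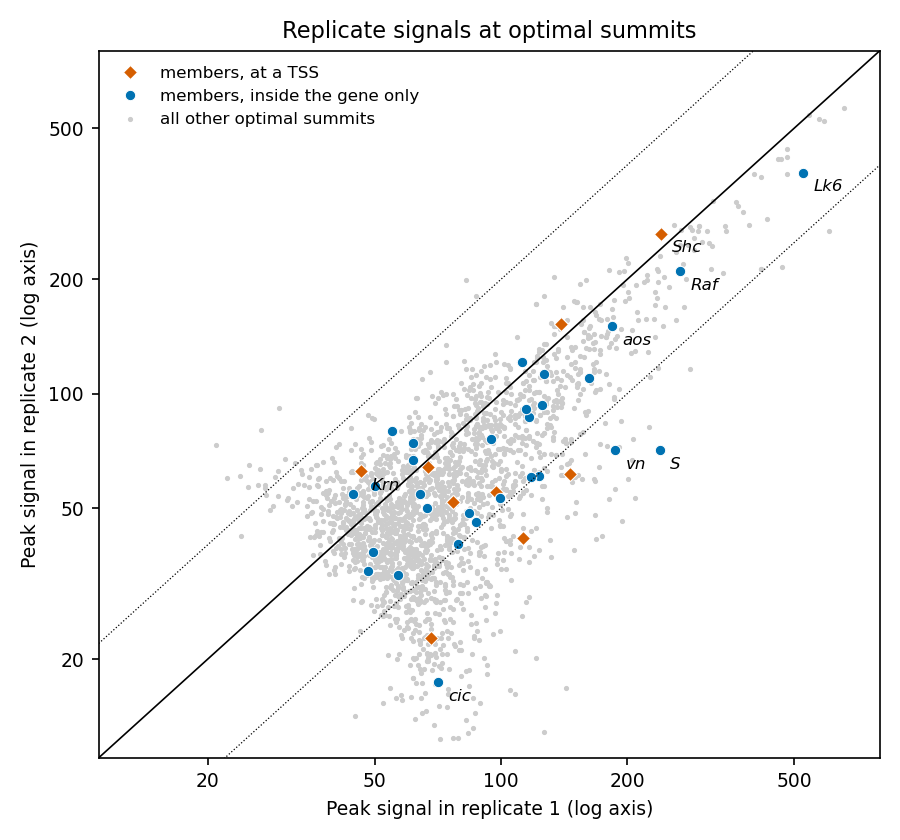
Peak signal in replicate 1 against replicate 2 (log axes) at the optimal summits of the pathway genes, at a TSS (orange diamonds) or inside the gene only (blue circles), and at all other optimal summits with both values (grey). The solid line marks equal values and the dotted lines 2-fold differences; S, vn and the cic summit of 91.2 lie below the lower dotted line.

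The pooled list of 30000 peaks by design includes background. In it, 33 of the 35 genes had a summit (94.3%, against 64.6% of protein-coding genes) and 28 had one at a TSS (80.0%, against 51.3%). Neither share in this list was matched for gene length. For the 16 genes seen only there, the strongest signal ran from 24.8 to 78.8 with a median of 50, and it lay in coding sequence at 6, in an intron at 5, upstream at 3 and in a 5′ UTR at 2. Just above the filter stood summits of cic (84.2), RapGAP1 (88.1) and Raf (88.3), and just below it another one of cic (81.6) and the promoters of drk (81.1), Lk6 (79.7) and S (79.4). The promoter sites of drk and S are shared with mars and ast.

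Of 94 further genes of the pathway and its neighbours, also listed with earlier results known, 35 had an optimal summit (37.2%) and 23 had one at a TSS (24.5%), against 13.5% and 10.5% of all protein-coding genes. Their median length was 13.9 kb, and 23.9% of all genes of 5 to 20 kb had an optimal summit, and 16.9% had one at a TSS. Adaptors, scaffolds and kinases had it most often, 12 of 18, among them Csk (268), Btk29A (247), Src64B (152), mts (137), wdb (134) and Abl (133). The mts summit is also at 2 bp from a TSS of Rack1. Of the other receptor genes 3 of 14 had one: InR, the insulin receptor gene, with 4 summits of up to 399.7 (283 and 116), otk (128) and dnt (109.8). Of the other ligand genes 4 of 9 had one, Pvf3 (134), jeb (129), ths (123; a ligand of Htl) and bnl (84.7; the ligand of Btl). Nuclear effectors and targets had 6 of 17, led by gro (330.4, the corepressor gene) and mnb (221). GTPases and exchange factors had 4 of 10, namely Rgl (168), Gef26 (104), C3G (99.2) and Ras64B (92.6). The Ras64B summit (64.2 in replicate 1 and 18.9 in replicate 2) was at -58 bp from its TSS and at -22 bp from that of Rop. Ligand-processing genes had 2 of 7 with Fur1 (423, a promoter shared with Vps33B) and stet (92.5). Inhibitors and phosphatases had 4 of 19, with Ptp4E (255), Socs36E (204), ebi (201) and Ptp61F (183).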

How the data were processed

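The 2 embryo libraries hold NC2alpha-eGFP ChIP-seq; the labels name anti-GFP in their description and NC2α as antibody. Per the notes deposited with the files, the authors called peaks with background against a control alignment, in single replicates and in the pool, and kept as optimal those passing an irreproducible discovery rate (IDR) filter. For the caller, the aligner and the IDR threshold, nothing is given in the sources used here. Signal values stand as the authors deposited them, and each deposited summit offset (other) was added to the peak start. Lists on the older build dm3 were not used. All 2174 optimal peaks were the strongest pooled peaks, and pooled and replicate lists on dm6 held 30000, 30000 and 29999 peaks on the 6 chromosomes used. Read depth is unknown. A replicate value is the strongest replicate peak overlapping by at least 1 base.

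The members, the lists of other pathway genes, roles and words were chosen with earlier results of these data known. Of 95 further symbols 1 matched no gene and 2 matched older symbols in RefSeq's table. No test was made, since the rule used the peaks and no groups were compared. No paired analysis was possible because both libraries form a single group. Named were all members and genes that share an optimal site of a member. Also named were mars, ast and CG30289, which share promoter sites of members below the filter. Among further pathway genes, those named had an optimal summit, but not all adaptors, scaffolds, kinases, nuclear effectors and targets with one were named. Summit assignment was tested on simulated data. Alternatives covered the TSS window, the peak list, each replicate alone, the nearest TSS only and, added after the data were seen, Raf left out. Python 3.11.15, numpy 2.4.6, pandas 2.3.3 and matplotlib 3.10.9 were used.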

Additional observations from a re-analysis of the deposited data

How the results depend on the processing

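The count of 17 genes with an optimal summit stayed between 16 and 24 under every alternative tried. It was 18 and 16 without replicate 1 and without replicate 2, when the 2174 strongest peaks of the other replicate were used. Which summits count as promoters depended on the window: the number of genes with one at a TSS was 14 at 1000 bp, with Gap1, Lk6, Raf, aop, cic and sty added, against 8 at 500 bp and 7 at 200 bp, where pnt was lost. The share of summits at a TSS was 51.2% at 1000 bp and 17.5% at 200 bp. In the 4348 strongest pooled peaks, 17 genes had a summit at a TSS, 24 had any, with Egfr, Gap1, Sos, csw, dos, htl and ru added, and 75 summits were assigned. The strongest 1087 peaks left 16 genes and 29 summits, without Krn. Raf left out gave 32 summits. No share of all protein-coding genes was taken under these alternatives. The counts therefore show how the list of genes changes, not an excess over other genes. Precision is limited by 2 replicates and by signal values of unstated scale, and intron sites in overlapping or nested genes have no unique gene.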
